A study of Homo sapiens with 18 samples.

Results

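The comparison set the sites of RNA polymerase II phosphorylated on tyrosine 1 of its C-terminal domain (Tyr1P) against the sites of the polymerase itself (Pol II) in cells labelled Control. ChIP-seq peak lists of 2 Tyr1P Control libraries and 2 Pol II Control libraries were used, out of 18 libraries in the series. Peaks on chromosomes 1 to 22 and X that did not overlap a peak of either input library were kept, and kept peaks of the 4 lists that shared at least 1 bp were merged into 44528 sites. The merged sites of all 16 immunoprecipitated libraries of the series number 148637. The question was which sites the antibodies shared, which were held by 1 of them, and where these lay relative to genes. A site was called shared when all 4 lists held a peak in it, Tyr1P only when both Tyr1P lists and neither Pol II list did, Pol II only in the reverse case, and mixed otherwise.

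All libraries came from HCT116 INTS11-AID cells, a human colon cancer line whose INTS11 protein bears a degron tag that auxin makes unstable. INTS11 is the endonuclease of Integrator, a complex that cleaves nascent RNA of Pol II. The Control libraries therefore share the degron tag with the libraries labelled IAA (auxin), and the labels name no clone. A single treatment text, common to all samples, names 14 h without serum, 500 uM IAA (1 h), EGF at 100 ng/ul (30 min) and interferon beta at 2000 U (1 h), without saying which library received what. The labels name the Pol II antibody as Abcam, ab26721 and the Tyr1P antibody as Activemotive, 61383. Nothing in the labels says that replicates came from separate cultures, so the spread between them may be technical. With 2 libraries against 2, the smallest p an exact permutation test can give is 0.333, so no difference between the antibodies could reach 0.05.

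The largest subunit of Pol II ends in a C-terminal domain made of many repeats of a heptad that begins with tyrosine, and phosphates placed on and taken off these repeats follow the polymerase through initiation, pausing, elongation and termination. In mammalian cells Tyr1 phosphorylation has been linked to ABL kinases and is found with Pol II at promoters and enhancers, and also with antisense transcription. Serine 2 phosphorylation (Ser2P), measured in other libraries of the series, marks elongating polymerase and accumulates towards and beyond gene ends. A total Pol II antibody and a Tyr1P antibody are thus directed at overlapping populations of the same enzyme.

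Examples of the 3 kinds of gene start show the range of sequences at which the peaks lay. The lines below give 300 bases of RefSeq sequence (GRCh38.p14), 250 before and 50 after the start, 5′ to 3′ on the gene's strand, with every CG dinucleotide in capitals. MYLIP (a ubiquitin ligase, chr6:16128836-16129135, plus strand) and SLC7A5 (an amino acid transporter, chr16:87869458-87869757, minus strand) headed the starts held by all 4 lists. GRAMD1C (a sterol transfer protein, chr3:113897250-113897549, plus strand) and ATOSB (chr9:35115813-35116112, minus strand) headed the Tyr1P only starts. H2BC18 (a histone H2B gene, chr1:149812321-149812620, minus strand) headed the Pol II only starts.
MYLIP: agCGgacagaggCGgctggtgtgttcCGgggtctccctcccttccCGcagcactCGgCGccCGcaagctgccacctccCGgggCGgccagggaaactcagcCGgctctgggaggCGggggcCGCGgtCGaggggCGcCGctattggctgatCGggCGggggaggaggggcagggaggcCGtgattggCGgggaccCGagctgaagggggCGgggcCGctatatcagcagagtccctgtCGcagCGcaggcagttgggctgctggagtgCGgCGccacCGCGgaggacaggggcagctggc
SLC7A5: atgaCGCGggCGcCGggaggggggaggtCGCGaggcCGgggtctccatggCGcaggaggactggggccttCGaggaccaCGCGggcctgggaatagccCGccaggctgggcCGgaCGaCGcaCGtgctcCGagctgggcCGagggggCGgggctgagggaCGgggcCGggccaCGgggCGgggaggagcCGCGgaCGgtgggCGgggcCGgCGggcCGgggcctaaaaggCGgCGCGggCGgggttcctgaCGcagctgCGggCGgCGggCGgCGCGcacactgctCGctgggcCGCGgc
GRAMD1C: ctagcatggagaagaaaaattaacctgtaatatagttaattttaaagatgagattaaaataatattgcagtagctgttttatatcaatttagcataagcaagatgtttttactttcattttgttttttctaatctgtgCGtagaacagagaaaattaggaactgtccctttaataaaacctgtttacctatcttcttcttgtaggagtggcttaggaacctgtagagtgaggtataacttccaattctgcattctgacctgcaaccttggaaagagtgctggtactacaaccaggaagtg
ATOSB: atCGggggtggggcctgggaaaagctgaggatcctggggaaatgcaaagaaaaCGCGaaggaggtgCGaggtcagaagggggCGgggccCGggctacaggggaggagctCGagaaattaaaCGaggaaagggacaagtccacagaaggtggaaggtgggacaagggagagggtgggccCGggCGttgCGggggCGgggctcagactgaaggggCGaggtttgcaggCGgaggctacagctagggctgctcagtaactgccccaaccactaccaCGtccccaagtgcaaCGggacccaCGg
H2BC18: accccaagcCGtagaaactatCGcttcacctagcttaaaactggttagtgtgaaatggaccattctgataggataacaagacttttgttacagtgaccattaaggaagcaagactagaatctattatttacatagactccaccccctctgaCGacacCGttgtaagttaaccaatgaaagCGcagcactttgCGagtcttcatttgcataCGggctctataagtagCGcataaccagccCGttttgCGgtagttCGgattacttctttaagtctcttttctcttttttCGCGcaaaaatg
At the MYLIP start the Tyr1P summits lay 45 and 45 bp and the Pol II summits 43 and 43 bp downstream of the start, with 29 CG dinucleotides in the sequence. Its fold enrichment was 20.4 and 20.6 in the Tyr1P lists and 27.4 and 26.7 in the Pol II lists. At SLC7A5, with 44 CG dinucleotides, the values were 13.5 and 14.4 for Tyr1P and 23.2 and 21.1 for Pol II. The fold values are the authors' own for each peak over its local background, and they are used only to describe and rank peaks within a list. The start given for GRAMD1C lies inside the gene as RefSeq bounds it. Its sequence held 1 CG dinucleotide and, read on the opposite strand, the letters TATAAA, and the Tyr1P summits, 35 and 26 bp downstream, had folds of 15.5 and 12.4. At ATOSB, with 17 CG dinucleotides, Tyr1P folds were 7.04 and 6.42, with summits 45 and 38 bp downstream. At H2BC18 the Pol II folds were 9.68 and 9.57, with summits 69 and 88 bp downstream of the start. Peaks of both Tyr1P lists also covered the Pol II summit there. H2BC18 counts as Pol II only because the nearest Tyr1P summits lay 1352 and 1342 bp away.

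More peaks were listed for Tyr1P than for Pol II. The Tyr1P lists held 38485 and 37472 kept peaks, and the Pol II lists held 22489 and 27169. The means were 37979 ± 716 and 24829 ± 3309 (SD, n = 2 each), a ratio of 1.53 (two-sided exact permutation test, p = 0.333). Both Tyr1P lists were longer than both Pol II lists. No source used here gives the number of sequenced reads. The background density of fragments, worked out from the fold and −log10 p that the authors deposited for each peak, was 6.57 and 6.995 fragments per kb in the Tyr1P libraries and 2.95 and 5.74 in the Pol II libraries. The Pol II library labelled Control without a replicate number had 8.06 fragments per kb and 35424 kept peaks. The part of this depth difference in the number of peaks was not tested beyond the equal list lengths used below. Between 0.584% and 2.03% of the listed peaks were removed for overlap with the inputs, which listed 1579 and 1004 peaks.

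Most Pol II peaks overlapped a Tyr1P peak, and a smaller share of Tyr1P peaks overlapped a Pol II peak. Of the peaks of Pol II replicate 1, 97.9% overlapped a peak of Tyr1P replicate 1 and 97.4% one of replicate 2. For Pol II replicate 2 the shares were 94.2% and 93.7%. These shares were above the overlap between the Pol II lists themselves, where 90.4% of replicate 1 and 74.5% of replicate 2 overlapped the other. The Tyr1P lists were longer, and their peaks had median widths of 488 and 503 bp against 404 and 370 bp for Pol II. The part of length and width in these shares was not tested beyond the equal list lengths used below. Of the Tyr1P peaks of replicate 1, 53.4% and 61.6% overlapped the Pol II lists, and of replicate 2, 54.4% and 62.6%. The Tyr1P replicates overlapped each other at 83.9% and 85.7% of their peaks.

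By sites, 18813 of 44528 (42.2%) were shared, 7316 (16.4%) were Tyr1P only and 50 (0.112%) were Pol II only. The remaining 18349 were mixed. The largest mixed classes were sites of a single Tyr1P list, 5490 for replicate 1 and 4914 for replicate 2, and 4106 sites of both Tyr1P lists and Pol II replicate 2. Only 1087 sites belonged to Pol II replicate 2 alone and 286 to Pol II replicate 1 alone.

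The excess of Tyr1P sites fell sharply when the lists were made equally long. With each list cut to its 22489 peaks of highest −log10 q, 27034 sites remained, of which 17046 (63.1%) were shared, 1114 (4.12%) Tyr1P only and 294 (1.09%) Pol II only. The lowest −log10 q left was 11.6 and 10.7 in the Tyr1P lists and 1.31 and 4.67 in the Pol II lists, so the cut removed peaks of the Tyr1P lists at a far stricter level. At this length 83.7% to 83.9% of Tyr1P peaks overlapped the Pol II lists and 90.2% to 90.7% of Pol II peaks overlapped the Tyr1P lists. Replicates overlapped at 91.6% and 91.7% for Tyr1P, and at 85.0% and 84.3% for Pol II. Tyr1P peaks were wider: medians were 658 and 671 bp against 404 and 428 bp (exact permutation p = 0.333). Of the 1114 Tyr1P only sites, 425 overlapped a peak of the full Pol II replicate 2 list. Of the 294 Pol II only sites, 241 and 234 overlapped the full lists of Tyr1P replicates 1 and 2.

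Shared sites lay mostly at genes' edges, defined as within 1 kb of either end of a RefSeq protein-coding gene, and Tyr1P only sites lay mostly away from them. Of the shared sites 55.9% (95% exact binomial interval 55.2% to 56.6%) lay at an edge, 20.7% in a gene interior, 3.97% in a flank of 1 to 5 kb outside a gene and 19.4% elsewhere. Of the Tyr1P only sites 15.0% (14.2% to 15.8%) lay at an edge, 33.8% in an interior, 12.001% in a flank and 39.1% elsewhere. These intervals cover counting error only, and sites of the same libraries are not replicates. A RefSeq start could be assigned for 15813 of 19974 protein-coding genes. Shared sites lay within 1 kb of such a start in 45.7% of cases and Tyr1P only sites in 4.95%. For gene ends the order was the opposite, 2.22% of shared and 7.07% of Tyr1P only sites. Mixed sites lay much as Tyr1P only sites did, with 13.1% at an edge, 38.5% in an interior, 11.1% in a flank and 37.25% elsewhere. At equal list length 15.6% of Pol II only and 14.6% of Tyr1P only sites lay at an edge. Lying away from edges was thus not particular to Tyr1P only sites.

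**Figure D1:**
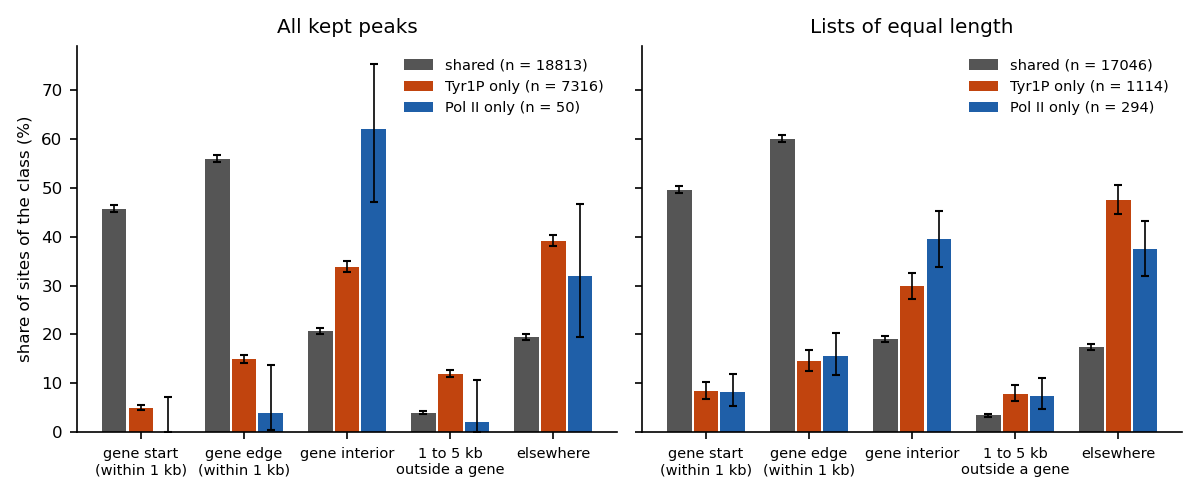
Share of shared, Tyr1P only and Pol II only sites (y axis, % of the class) by place relative to RefSeq protein-coding genes (x axis), for all kept peaks (left) and for lists of equal length (right). Bars start at 0 and error bars are 95% exact binomial intervals. Gene starts were counted on their own and overlap the other places, since a RefSeq start can lie in a gene interior. At a gene edge lie 55.9% of shared and 15.0% of Tyr1P only sites on the left.

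Counted the other way, Tyr1P only sites made up 4.04% of all shared and Tyr1P only sites at gene starts, and 55.4% of those at gene ends. They made up 38.9% in gene interiors, 43.9% elsewhere and 54.0% in the flanks. At equal list length the shares were 1.10% at starts, 9.16% at ends, 9.31% in interiors, 12.9% in flanks and 15.1% elsewhere. Starts held the smallest share in both analyses.

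The library values ran the same way. Edge peaks made up 34.6% and 36.2% of the Tyr1P lists and 52.6% and 47.1% of the Pol II lists, a difference of -14.4 percentage points (p = 0.333, n = 2 each, exact permutation test). In absolute numbers, however, 9771 and 9739 Tyr1P peaks and 9629 and 10133 Pol II peaks lay at gene starts, and these values overlapped between antibodies. The Tyr1P lists thus held about as many start peaks and more peaks of every other kind. Peaks at gene ends numbered 1496 and 1743 for Tyr1P and 521 and 800 for Pol II. Interior shares were 28.4% and 28.0% against 22.1% and 24.2%, and shares elsewhere were 29.6% and 27.8% against 20.97% and 23.7%.

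At equal length the edge share was 49.2% and 50.1% for Tyr1P and 52.6% and 53.3% for Pol II, a difference of -3.31 percentage points. The difference in the interior share was 0.242 percentage points, and the libraries overlapped (exact permutation p = 0.667). Peaks elsewhere stayed higher for Tyr1P, at 24.1% and 23.2% against 20.97% and 20.7%, a difference of 2.79 percentage points (exact permutation p = 0.333). Gene end peaks numbered 453 and 554 for Tyr1P and 521 and 552 for Pol II, again overlapping.

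Tyr1P only sites were among the weaker Tyr1P peaks. Their median within-list rank by −log10 q, where 100 is the strongest, was 26.8 in replicate 1 and 26.3 in replicate 2, and that of shared sites was 75.5 and 74.9. Median folds were 4.82 and 4.56 against 11.1 and 10.8, and median widths 341 and 335 bp against 706 and 716 bp. When each Tyr1P list was divided into 10 slices by strength, all peaks of slices 9 and 10 lay in shared sites, and none of slices 8 to 10 lay in a Tyr1P only site. In slice 4, 40.7% and 43.4% of the peaks were Tyr1P only. The share of peaks at a gene edge rose over the same slices, from 15.4% and 14.8% in slice 1 to 81.6% and 82.4% in slice 10.

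**Figure D2:**
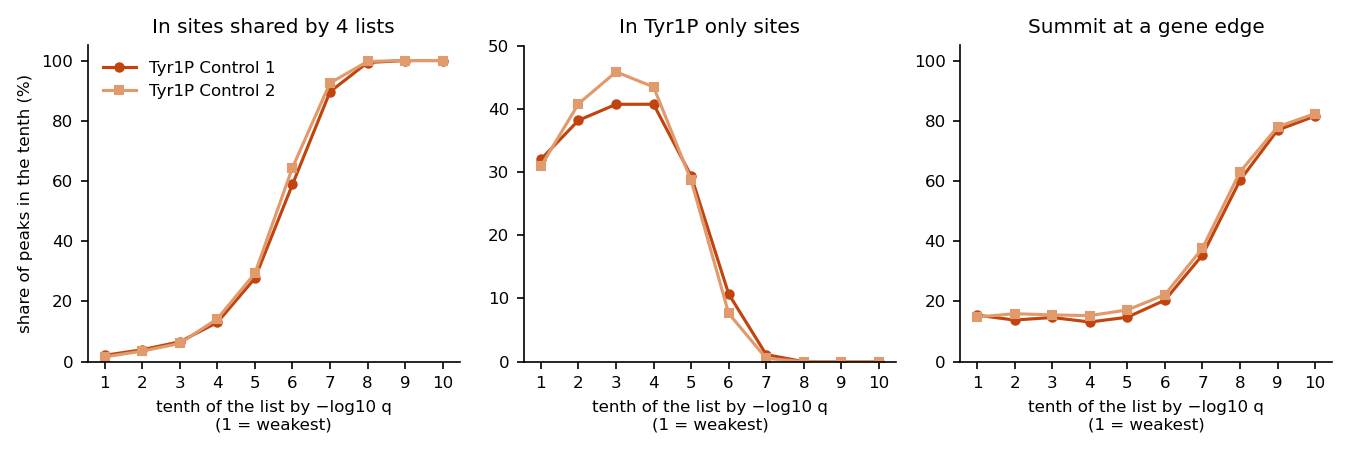
Share of peaks (y axes, %) in shared sites (left), in Tyr1P only sites (middle) and with the summit at a gene edge (right), for 10 slices of each Tyr1P Control list by −log10 q (x axis, 1 weakest). Each line is 1 library; the middle axis ends at 50%, and no peak of slices 8 to 10 is in a Tyr1P only site.

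Strength and place moved together, and among weak peaks of equal rank the places differed less. In ranks 0 to 25, 45.2% of the edge peaks of Tyr1P replicate 1 were Tyr1P only, against 33.2% of interior, 43.6% of flank and 32.9% of other peaks. In replicate 2 the values were 35.6%, 34.7%, 34.4% and 43.6%. In ranks 25 to 50 they were 31.1%, 34.8%, 37.8% and 38.8% in replicate 1, and 36.2%, 37.2%, 43.4% and 38.5% in replicate 2. The order of the places at these ranks was not the same in both replicates. In ranks 50 to 75 the edge share was the lowest in both, at 1.95% and 1.53%, against 4.92% and 3.08% in interiors and 7.002% and 5.03% elsewhere. Above rank 75 no peak was Tyr1P only.

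The distance of the Tyr1P only sites to Pol II peaks was measured against the 2 numbered Control lists. The median distance to the nearest of their kept peaks was 12195 bp, with quartiles of 4354 and 32775 bp, and 12.8% of the sites had one within 1 kb. Per chromosome, Tyr1P only sites made up between 24.5% (chromosome 19) and 33.1% (chromosome 21) of the shared and Tyr1P only sites.

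Libraries that did not define the sites held many of the Tyr1P only sites. The Pol II library labelled Control without a number, the library with the highest background density of the Pol II lists, held a peak in 60.4% of them (59.3% to 61.5%) and in 98.8% of the shared sites. Pol II IAA replicates 1 and 2 held 7.91% and 16.1%, and 68.6% and 79.7% of the shared sites. The 3 other unnumbered Pol II libraries, whose labels disagree with their deposited names for the ones labelled IAA and EGF, held 35.1% to 52.3%. Tyr1P IAA replicates 1 and 2 held 45.1% and 39.7%, and both together 2147 sites (29.3%), against 90.6% of the shared sites. Of the 7316 sites, 1552 (21.2%) lay in none of the 8 Pol II lists, and 186 of these recurred in both Tyr1P IAA lists. The stronger the Tyr1P only site, the more often the unnumbered Pol II Control library held it: 44.3% at ranks under 10 and 91.7% at ranks of 50 to 60.

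**Figure D3:**
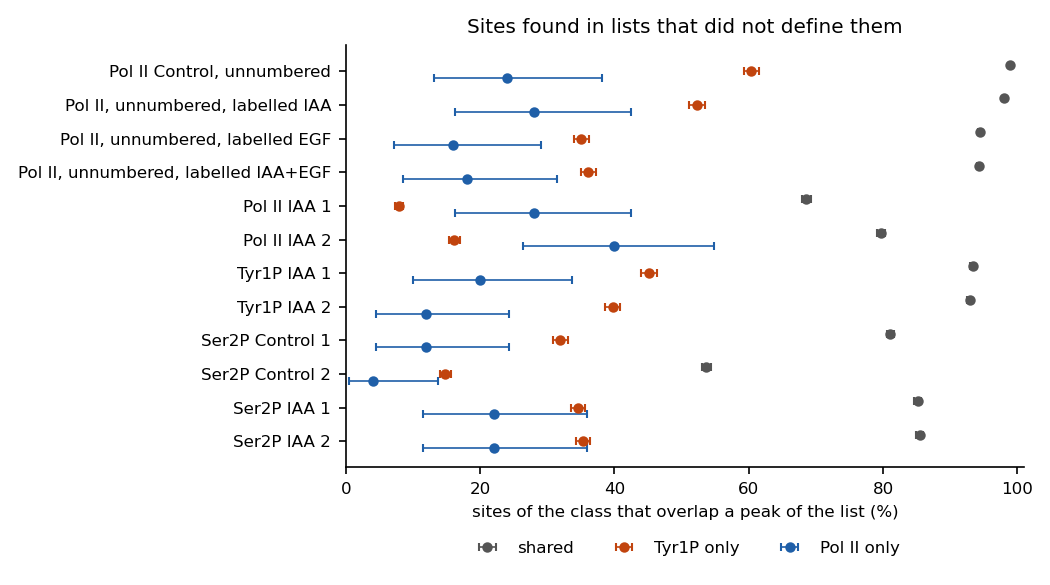
Share of shared, Tyr1P only and Pol II only sites (x axis, %) that overlap a kept peak in each library that did not define them (y axis). Points are shares and bars 95% exact binomial intervals; the unnumbered Pol II Control library holds 98.8%, 60.4% and 24% of the 3 classes.

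The Ser2P Control lists, of elongating polymerase, held 32.0% and 14.8% of the Tyr1P only sites and 81.1% and 53.7% of the shared ones. The Ser2P share depended on the place. Ser2P Control replicate 1 held 89.4% of the Tyr1P only sites at gene ends, 62.1% in flanks, 34.3% at gene starts, 29.4% in interiors and 12.6% elsewhere. At shared sites it held 91.4% at ends and 93.2% at starts. In Ser2P Control replicate 2, a library of 15270 kept peaks against 37013 in replicate 1, the shares of Tyr1P only sites were 55.9% at ends and 16.6% at starts.

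Beyond gene ends, Tyr1P peaks stood out in the full lists. Among 4565 isolated gene ends (genes of at least 10 kb with no other protein-coding or long noncoding gene within 5 kb before or 10 kb after the end), 345 and 406 Tyr1P summits lay within 1 kb of the end, against 92 and 140 Pol II summits. The ratio of the means was 3.24 (exact permutation p = 0.333). From 1 to 5 kb after the end the counts were 671 and 773 against 160 and 263, a ratio of 3.41. The Ser2P Control lists had 1871 and 557 summits there, and the unnumbered Pol II Control list had 597. At equal list length the Tyr1P counts in that stretch were 140 and 164 and the Pol II counts 160 and 161, and the values of the antibodies overlapped. Of the isolated ends, 2.85% had a summit within 1 kb in both Tyr1P lists and neither Pol II list, 1.4% in all 4 lists and 0.0876% in the Pol II lists only.

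In the flanks of genes with a known direction, 498 Tyr1P only sites lay downstream and 181 upstream, or 73.3% downstream (69.8% to 76.6%). For shared sites the counts were 310 and 229, or 57.5%. For mixed sites they were 1228 and 349, or 77.9% (75.7% to 79.9%), so the downstream excess was not particular to Tyr1P only sites. At equal list length, 27 Tyr1P only sites lay downstream and 34 upstream, or 44.3% downstream. In the full lists the downstream share of flank summits was 69.1% and 72.4% for Tyr1P, 57.3% and 63.1% for Pol II and 85.2% and 85.8% for Ser2P Control. At equal length the order turned, with 52.8% and 55.4% for Tyr1P and 57.3% and 59.4% for Pol II.

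**Figure D4:**
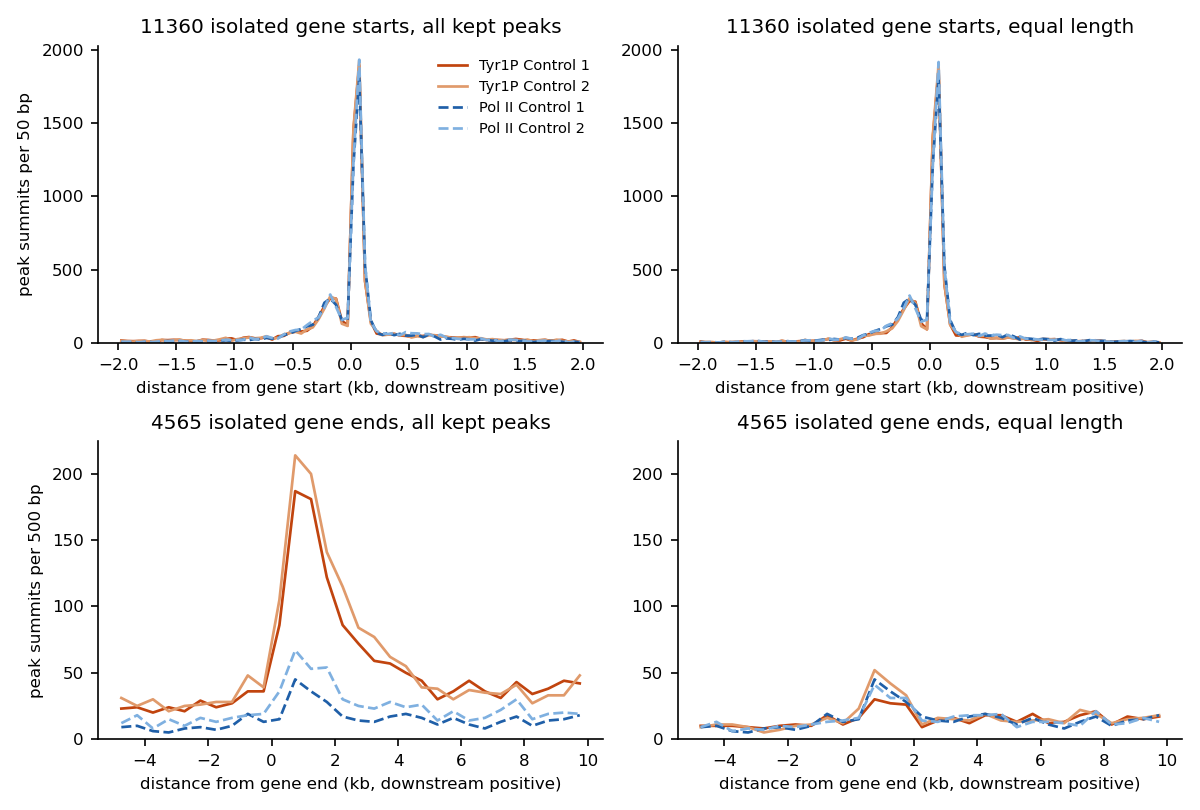
Number of peak summits (y axis) per 50 bp around 11360 isolated gene starts (top) and per 500 bp around 4565 isolated gene ends (bottom), by distance in kb (x axis, downstream positive), for all kept peaks (left) and lists of equal length (right). Each line is 1 Control library; the Tyr1P excess after gene ends on the left, 671 and 773 summits from 1 to 5 kb against 160 and 263, is not seen on the right.

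At gene starts the antibodies placed their summits at nearly the same position. At 5892 isolated starts in shared sites, median summits lay 48 and 49 bp downstream of the start for Tyr1P and 50 and 52 bp for Pol II. The median absolute distance between a Tyr1P and a Pol II summit was 19 or 20 bp over the 4 pairs of libraries. It lay between that of the Tyr1P replicates, 14 bp, and that of the Pol II replicates, 23 bp. The offset between antibodies was therefore no larger than the spread between Pol II replicates. A minor group of summits lay upstream of the start, 28.5% and 27.5% of Tyr1P and 29.6% and 28.7% of Pol II summits.

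Across protein-coding genes, 11366 of 19974 (56.9%) had an edge peak in all 4 lists, 395 (1.98%) in both Tyr1P lists and neither Pol II list, 22 (0.11%) in the Pol II lists only, and 7194 (36%) in none. At equal length the counts were 11191 (56%), 102 (0.511%), 53 (0.265%) and 7861 (39.4%). Of the 395 Tyr1P only genes, 240 had an edge peak in the unnumbered Pol II Control library and 153 in both Tyr1P IAA lists. At all 22 Pol II only genes a Tyr1P peak covered the Pol II summit, with its own summit farther from the edge, so these genes differed in where the summit was placed and not in whether both antibodies had a peak. A Pol II peak covered the Tyr1P summit at 8 of the 395. Of the 102 Tyr1P only genes at equal length, a peak of the full Pol II lists covered the Tyr1P summit at 41 (40.2%).

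The strongest genes with an edge peak in all 4 lists were MYLIP, SLC7A5, CSRNP2, DGAT1 (the last step of triglyceride synthesis), SOCS1 (an inhibitor of cytokine signalling) and JPT1, each above rank 99.8 in every list. Among the Tyr1P only genes, KLK10 (a secreted serine protease) and RUFY3 ranked highest, with Tyr1P folds of 7.41 and 6.44, and of 7.80 and 7.48. At both genes Pol II peaks of both replicates covered the Tyr1P summit, and the nearest Pol II summits lay 15 and 57 bp away at KLK10 and 312 and 300 bp away at RUFY3. At both, the Pol II summits lay just outside the 1 kb window. HCST and TYROBP, adjacent genes for signalling adaptors of immune cells, shared 1 Tyr1P peak with folds of 5.29 and 4.55. The nearest Pol II summits lay 3271 and 3308 bp away, but the unnumbered Pol II libraries labelled Control and IAA held a peak over the Tyr1P summit.

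SLPI, a secreted protease inhibitor of epithelia, had Tyr1P folds of 9.40 and 11.2 and no Pol II Control summit within 24950 bp, and both Pol II IAA lists and the unnumbered library labelled IAA+EGF held a peak there. SYT12, a synaptotagmin, had folds of 13.4 and 8.73, with the nearest Pol II summits 16281 and 15733 bp away, but all 6 other Pol II lists held a peak over its Tyr1P summit. CDH15, a cadherin, had 8.02 and 6.41. WFDC10A had 10.2 and 9.62, with the nearest Pol II summits 18506 and 18642 bp away. AQP2, a water channel, had 11.2 and 8.04 at its downstream end, where a Pol II peak of replicate 1 covered the Tyr1P summit. At CDH15, AQP2 and WFDC10A all 4 unnumbered Pol II libraries held a peak over that summit. WDR38, at its downstream end, had folds of 3.35 and 4.34, with Pol II summits 455 and 449 bp away. A Pol II peak of replicate 2 covered its Tyr1P summit.

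Of the Pol II only genes, H2BC18 ranked highest, with the nearest Tyr1P summits 1352 and 1342 bp away. DUSP28, a phosphatase, had Pol II folds of 8.17 and 7.70 and Tyr1P summits 945 and 961 bp away. ZBTB43, a zinc finger protein, had folds of 11.2 and 12.2, and the Tyr1P summits lay 26 and 30 bp from the Pol II ones, just across the edge of the window. DAP3 (a mitochondrial ribosomal protein), LNPEP (an aminopeptidase), PHPT1 (a histidine phosphatase), SHANK1 (a postsynaptic scaffold), CHST15 (a sulfotransferase), RBM47 (an RNA-binding protein) and S100PBP completed the first 10, with Pol II folds from 4.29 to 10.9.

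Lists of genes with known roles showed little difference between the antibodies. All 15 Integrator subunit genes, all 12 Pol II subunit genes and all 27 matched pausing and elongation factor genes had an edge peak in all 4 lists, against 56.9% of all protein-coding genes. So did 24 of 26 genes for kinases and phosphatases of the C-terminal domain, 19 of 20 cleavage and termination factor genes, 18 of 20 p53 target genes and 35 of 38 immediate early genes. FOS, a transcription factor of the immediate early response, had folds of 18.6 and 19.1 for Tyr1P and 24.3 and 23.9 for Pol II, with summits 37 to 47 bp from the gene edge. POLR2A, the largest subunit of Pol II, had 12.2 and 12.02 against 19.0 and 17.4. INTS11 itself had 8.72 and 7.07 against 7.47 and 7.06.

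Of 23 genes for snRNAs and other small nuclear or nucleolar RNAs, 22 were shared. The list joins Pol II snRNA genes such as RNU1-1 and RNU2-1, whose transcripts Integrator cleaves, with the Pol III genes RNU6-1, RNU6ATAC, RN7SK, RMRP and RPPH1. RNU4-1 was the exception, with Pol II folds of 6.52 and 5.74 and summits 11 and 26 bp from the gene. Tyr1P peaks of both replicates reached its edge window, with summits 1285 and 1287 bp away. Of the 10 independently transcribed snoRNA genes 6 were shared. No share over all noncoding genes was counted to set beside these. Of 54 replication-dependent histone genes, whose transcripts end in a stem-loop, 36 (66.7%) were shared, against 56.9% of all protein-coding genes. Another 17 had no edge peak in any list. H4C1, a histone H4 gene, was Pol II only, with folds of 3.80 and 4.41 and Tyr1P summits 1154 and 1155 bp away.

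ALDOA, a glycolytic enzyme, was the Tyr1P only member among 24 glycolysis and housekeeping genes, with folds of 2.18 and 2.33. Pol II peaks of both replicates reached its edge window, with the nearest summits 1524 and 1562 bp from the edge. ATF3, a stress-induced transcription factor, was Tyr1P only among the immediate early genes, with folds of 3.40 and 3.27. NOTUM, a Wnt antagonist, had 6.20 and 5.91, with 10 of 16 Wnt target genes shared. The unnumbered Pol II Control library had a summit 138 bp from the NOTUM edge with a fold of 2.76. HNF4A, a transcription factor of gut and liver, had Tyr1P folds of 8.23 and 7.88 and no Pol II Control summit within 26885 bp. There the unnumbered Pol II Control library had a summit 258 bp from the edge with a fold of 6.54.

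Of 16 marker genes of the intestinal epithelium, 10 (62.5%) were shared, near the 56.9% of all protein-coding genes. EPCAM was among them, with Tyr1P folds of 16.7 and 15.5 and Pol II folds of 13.2 and 14.1. CDX1, VIL1, LGALS4, CEACAM5 and TSPAN8 had an edge peak in none of the 4 lists. Of 15 blood, 15 neuron and 15 liver genes, 2, 5 and 2 were shared. CD3D, of the T cell receptor complex, was the Tyr1P only member, with folds of 6.77 and 4.42. At equal list length ATF3, ALDOA and CD3D had an edge peak in none of the 4 lists, NOTUM and HNF4A were still Tyr1P only, and EGR3, an immediate early transcription factor, was Tyr1P only and no longer mixed.

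Away from edges, the highest-ranked Tyr1P only sites had folds above the list medians of 6.83 and 6.46, except the one near GNA12. NWD2 held one in its interior (chr4:37280219-37280714) with folds of 12.7 and 15.3, and GRAMD1C (chr3:113897338-113897791) with 15.5 and 12.4. The others of the first 6 lay outside genes. They were chr7:2870683-2871041, 26551 bp from GNA12, with folds of 6.05 and 6.27; chr1:228852080-228852520, nearest to RHOU, with 12.9 and 12.5; chr6:52598101-52598691, nearest to TRAM2, with 11.7 and 11.3; and chr20:59063576-59064023, nearest to PRELID3B, with 14.3 and 12.1. The unnumbered Pol II Control library held a peak in all 6, and at least 1 Tyr1P IAA list did too.

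In the full lists, interior peaks per gene gave the same direction. In 516 of 18725 genes (2.76%) the lower Tyr1P count exceeded the higher Pol II count by 2 or more. In 5 (0.0267%) the reverse was seen. These lists held 10931 and 10477 interior Tyr1P peaks against 4980 and 6571 for Pol II, and the gene counts were not repeated at equal length. At that length the interior shares differed by 0.242 percentage points and overlapped between antibodies. PCDH7, a protocadherin gene of 426 kb, had 34 and 29 Tyr1P and 7 and 11 Pol II interior peaks, and the unnumbered Pol II Control library had 43. MPP7, a polarity scaffold, had 21 and 16 against 6 and 3. PHLDB2, which organises the cell cortex, had 19 and 16 against 2 and 6, and CDH23, a cadherin, had 18 and 15 against 4 and 7. These genes were picked for their difference, so its direction is a description. The unnumbered Pol II Control library had 20 interior peaks in MPP7, 20 in PHLDB2 and 7 in CDH23. PCDH7 held 12 Tyr1P only sites, the most of any gene, followed by MPP7 (284 kb) and RAD51B (863 kb) with 10 each. They also held 4, 3 and 4 shared sites. Of 19974 protein-coding genes, 2407 held at least 1 Tyr1P only site and 125 held 3 or more. These are counts in the full lists and were not repeated at equal length.

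The Pol II only sites were few and partly gathered in single genes. Of the 50, 31 lay in gene interiors, 16 elsewhere, 2 at edges and 1 in a flank, and none lay within 1 kb of a RefSeq start (95% upper bound 7.11%). INTS3 held 4, CUL7 3 and ZNFX1 2, and 23 genes held 1 each. Their median ranks were 13.5 and 24.2 in the Pol II lists and their median folds 4.89 and 5.12. A Pol II IAA list held 22 of the 50, the unnumbered Pol II Control list 12, a Tyr1P IAA list 11, and 14 lay in no other list of the series.

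INTS3, an Integrator subunit that also belongs to the SOSS complex of DNA repair, carried the strongest of them. Its interior, more than 1 kb from both gene ends, held 8 and 16 peaks in the Pol II Control lists and 13 and 12 in the Pol II IAA lists, but 1 and 6 in the Tyr1P Control lists and 0 in the unnumbered Pol II Control list. The inputs had none. All 8 summits of Pol II Control replicate 1 recurred within 50 bp in Pol II Control replicate 2 and in both Pol II IAA replicates. In the Tyr1P Control lists 1 of them recurred in replicate 1 and 4 in replicate 2. The site at chr1:153772886-153773473 had Pol II folds of 6.36 and 7.02, and that at chr1:153771762-153772002 had 5.13 and 7.45. Both Tyr1P IAA lists held a peak in the former site and neither did in the latter. Interior Pol II peaks of INTS3 had median widths of 283.5 and 241.5 bp, and the interior Tyr1P peaks of INTS3 had 233 and 274 bp. Pol II peaks of all Pol II only sites, those in INTS3 included, had 216 and 250.5 bp. Over the whole lists the median widths were larger, 404 and 370 bp for Pol II and 488 and 503 bp for Tyr1P. The numbered Pol II libraries thus differed at INTS3 from the unnumbered one of the same antibody and label as well as from Tyr1P, and a cause was not tested.

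**Figure D5:**
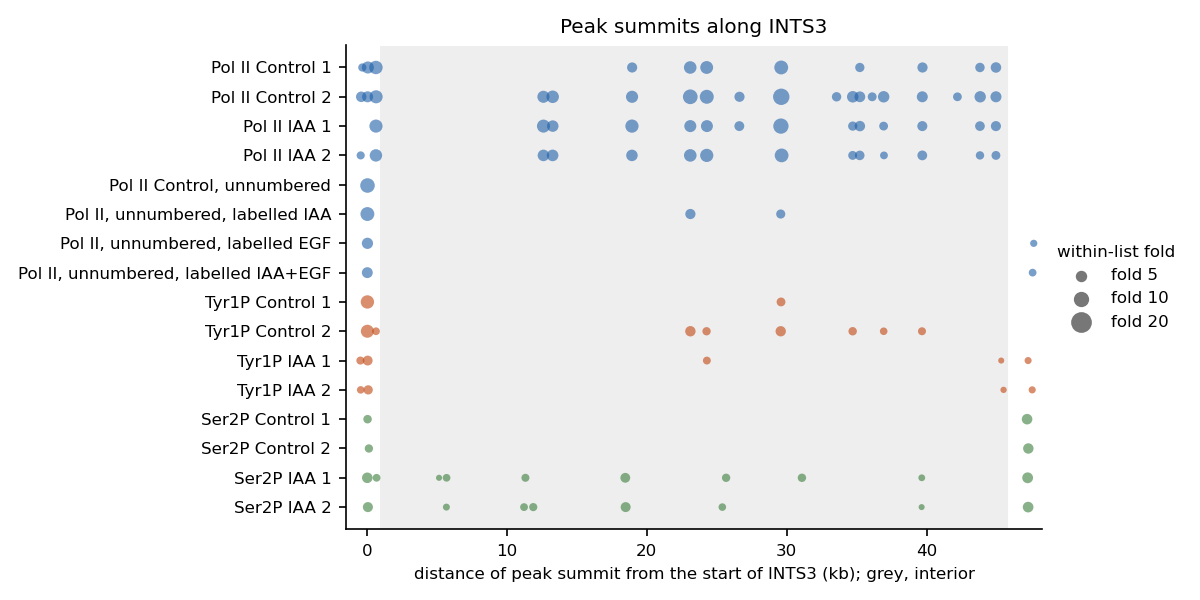
Position of peak summits along INTS3 (x axis, kb from the gene start) in 16 libraries (y axis), with the area of each point scaled to the fold of the peak in its own list and the gene interior shaded grey. The numbered Pol II libraries hold 8 to 16 interior peaks, the Tyr1P Control libraries 1 and 6 and the unnumbered Pol II Control library 0.

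CUL7, a cullin of ubiquitin ligases, had 4 and 6 interior peaks in the Pol II Control lists and 0 in both Tyr1P Control lists. Only 2 of the 4 summits of replicate 1 recurred within 50 bp in replicate 2. ZNFX1, an antiviral RNA sensor, had 7 and 5 against 2 and 1, and none of the 7 recurred within 50 bp in replicate 2. SLC51A, a bile acid transporter subunit, had 2 and 3 against 0 and 0, and RUFY3 2 and 2 against 0 and 0. At RUFY3 the Pol II summits just past the 1 kb window, described above, count as interior ones.

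Gene starts of the classes differed in sequence. The median number of CG dinucleotides in the 300 bases was 28 at 9308 starts with a summit within 1 kb in all 4 lists, 14 at 222 Tyr1P only starts, 27 at 16 Pol II only starts and 6 at 5701 starts with none, and 22 over all 15813. The letters TATAAA, searched on both strands, were present in 4.68% of shared (4.26% to 5.13%), 12.2% of Tyr1P only (8.17% to 17.2%), 17.8% of starts with none and 9.64% of all. GGGCGG, on both strands, was present in 75.6%, 52.7%, 31.3% and 58.5% of the same sets. CCAAT, on both strands, was present in 37.0% of shared, 36.5% of Tyr1P only and 36.3% of all starts. Motifs can share bases where they adjoin, and each was counted on its own. The Tyr1P only starts thus lay between the shared starts and those without a peak in CG count, TATAAA and GGGCGG, as did the 566 mixed starts, with a median of 13 CG dinucleotides.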

How the data were processed

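ChIP-seq peak lists of 18 libraries of HCT116 INTS11-AID cells were used, 1 list per library on hg38. Per the submitters' processing notes, MACS2 2.2.7.1, Bowtie2 2.3.4.1, Trim Galore 0.6.6, deepTools 3.5.1 and Picard 2.25.7 were used; their settings and the control of the peak calls are not given in the sources read. For each peak the authors deposited a fold enrichment (a linear ratio over local background), −log10 p and −log10 q values, a whole-number score and the offset of the summit.

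From these lists, peaks off chromosomes 1 to 22 and X or overlapping either input list by at least 1 bp were dropped, and kept peaks were merged. Equal-length lists held the 22489 peaks of highest −log10 q. Sites were placed by the summit of the first list holding them, in the order Tyr1P replicate 1, Pol II replicate 1, Tyr1P replicate 2, Pol II replicate 2. Genes, and starts for 79.2% of the 19974 protein-coding genes, came from RefSeq (GRCh38.p14). Library values were compared by two-sided exact permutation tests and shares have 95% exact (Clopper-Pearson) intervals. Fragment density was solved from fold and −log10 p under a Poisson background, with whole counts for 99.9% to 100% of peaks within a relative tolerance of 0.0002. On simulated data the scripts placed 100% of 6000 sites in their class and 99.6% of 4000 summits in their place.

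Genes were named by rank: the lower of a gene's within-list ranks by −log10 q, for the 10 highest Tyr1P only and Pol II only genes, the 6 highest shared genes and the 6 highest one-sided sites away from edges, and members of the gene lists, of which 1 list is not reported here. INTS3, CUL7 and ZNFX1 were followed because they held several Pol II only sites, and genes named for interior counts were those of largest difference, chosen after their values were seen. The sites, lists and comparisons were chosen with earlier results of these data known. Alternatives tried were equal list length, −log10 q of at least 5, another overlap, no merging, input peaks kept, a 500 bp edge window, each replicate left out, the replicate block and the unnumbered Pol II Control list added. Python 3.11.15, numpy 2.4.6, pandas 2.3.3, SciPy 1.17.1 and matplotlib 3.10.9 were used.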

Additional observations from a re-analysis of the deposited data

How the results depend on the processing

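Of 133 alternatives over 15 results, 92 left a count within 1.5 times its value, a share or distance within its interval or spread, or a tested difference in the same direction. All 42 tested alternatives kept their direction, but none could pass 0.05 with 2 libraries a group, which says nothing about stability. Counts of one-sided sites moved most. At equal list length 1114 sites were Tyr1P only and 294 Pol II only, such edges numbered 102 and 53 genes, and the unnumbered Pol II Control and both Tyr1P IAA lists held 87.5% and 56.4% of the Tyr1P only sites. Requiring −log10 q of at least 5 gave 25 Pol II only sites, an edge share of 14.1%, shares of 76.2% and 41.7% in those lists, and a median summit distance of 18.5 bp against 19.25 bp over all starts. Keeping input peaks gave 120 Pol II only sites. A 500 bp window gave an edge share of 7.16% and 126 Pol II only genes. Adding the unnumbered Pol II Control list left 2898 Tyr1P only and 12 Pol II only sites, 155 and 7 such genes and 22.98% in both Tyr1P IAA lists. A 50% overlap or no merging changed no count by over 1.5 times.

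Leaving out 1 library gave 8679 to 13223 Tyr1P only sites and 91 to 1139 Pol II only sites. Without Tyr1P replicate 1 or 2 the Tyr1P only sites numbered 12566 and 13223, and without Pol II replicate 2, 11430. Without Pol II replicate 1 or 2 the Pol II only sites numbered 1139 and 339, and without Tyr1P replicate 1 or 2, 113 and 91. The edge share of Tyr1P only sites ranged from 13.3% to 15.9%, the share in the unnumbered Control list from 45.0% to 68.6%, that in both Tyr1P IAA lists from 20.2% to 36.6%, and the gene counts from 496 to 767 and from 39 to 75. Fewer lists to agree on make each one-sided class larger by construction; the cause of the other shifts was not tested. Without Pol II replicate 2 the Tyr1P only genes numbered 767.

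Replicate numbers were not shown to pair the libraries: with 2 pairs, the differences between replicates had a correlation of 0.059 over 18813 shared sites. Under the replicate block the exact p was 0.5 for kept peaks (a difference of 13149.5), for the edge, interior and elsewhere shares (-14.4, 5.02 and 6.38 percentage points) and for the width (108.5 bp), and no call changed. No alternative at equal length was possible for the number of kept peaks, and none at the 50% overlap for genes, which were counted by summits. Background density was lowest in Pol II replicate 1, at 2.95 fragments per kb, and its part in the absence of Pol II peaks was not tested.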

Other observations

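Among shared sites 56 lay within 500 bp of an snRNA gene, 26 of a snoRNA gene and 110 (0.585%) of a tRNA gene, which Pol III transcribes. Among the 7316 Tyr1P only sites the counts were 2, 6 and 20 (0.273%), and among the 50 Pol II only sites they were 0. Starts of long noncoding genes, away from edges of protein-coding genes, held 828 shared sites (4.40%), 197 Tyr1P only sites (2.69%) and 2 Pol II only sites. With lists of equal length, 8 of the 294 Pol II only sites (2.72%, interval 1.18% to 5.29%) lay near a tRNA gene, against 0.522% of shared and 0.359% of Tyr1P only sites. Long noncoding starts then held 4.45% of shared and 4.13% of Tyr1P only sites.

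The 186 Tyr1P only sites found in none of the 8 Pol II lists and in both Tyr1P IAA lists had median folds of 4.59 and 4.40 in the Tyr1P Control lists. Of them 72 lay elsewhere, 48 in gene interiors, 36 at gene edges and 30 in flanks, and Ser2P Control replicate 1 held 44.1%. The highest-ranked lay 1007 bp outside HSPB3 (a small heat shock protein of muscle), with folds of 11.4 and 8.45, and at the edge of ACSL6 (a fatty acid CoA ligase), with 8.70 and 8.45. WNT6, a Wnt ligand, had an edge site with 5.55 and 5.74, and SLCO3A1, an organic anion transporter, an interior one with 7.61 and 8.45.

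At equal list length, further genes were Tyr1P only at an edge. FURIN, a proprotein convertase, had folds of 5.95 and 4.98, and the nearest Pol II summits lay 1267 and 1236 bp away. MR1, which presents vitamin metabolites to T cells, had 9.14 and 9.39. Its nearest Pol II Control summits lay 10751 and 761 bp away, and no Pol II Control peak covered the Tyr1P summit. Pol II IAA replicate 1 and all 4 unnumbered Pol II libraries held a peak over that summit. DOP1A, a protein of Golgi trafficking, had 7.18 and 7.34, and a Pol II peak of replicate 2 covered its Tyr1P summit. Among the Pol II only sites at this length, PCF11, a cleavage and termination factor, held an interior one with Pol II folds of 6.66 and 6.53, which both full Tyr1P lists also covered.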
